A study of Homo sapiens with 6 samples.

Results

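The genes described are the inhibitor of DNA binding genes ID1, ID2, ID3 and ID4 with 6 genes of the bone morphogenetic protein (BMP) pathway, namely the ligand gene BMP4, the receptor genes BMPR1A and BMPR2, and SMAD1, SMAD6 and SMAD7. They were taken by gene name from a table of 15897 listed genes, and all 10 were listed and reached the level at which other genes were tested. The names were chosen from the FPKM (fragments counted per gene, scaled by transcript length and by the library's mapped fragments) of these same libraries, control against shSETD2, so the difference between the groups is given for these 10 genes as a description and without a test. RNA-seq was run on 6 libraries labelled as H1650, a human lung adenocarcinoma cell line. Of these, 3 control libraries carry the genotype label wild type and 3 carry the label shSETD2, for cells in which short hairpin RNA was directed against SETD2, the enzyme that places the third methyl group on lysine 36 of histone H3. The study made its SETD2-silenced cells with lentiviral hairpins from several constructs, and the labels do not say whether the 3 shSETD2 numbers are constructs or repeats of 1 of them, nor what the control cells carried. Nothing says that libraries of a group came from separate cultures, so SD and p-values measure only the spread between these libraries, which may be technical.

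BMP ligands bind paired type I and type II receptor kinases at the cell surface, and the type I receptor phosphorylates the receptor SMADs (SMAD1, SMAD5 and SMAD9), which enter the nucleus with SMAD4. Among the best known direct targets are the ID genes, whose products have a helix-loop-helix but no DNA-binding region and hold E proteins away from DNA, and SMAD6 and SMAD7, which inhibit the pathway in return. In lung, BMP signalling is known for its part in airway branching and in epithelial differentiation.

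The libraries differed between groups across the genes tested. Pearson's r of log2(FPKM + 1) was 0.982 to 0.990 between libraries of a group and 0.701 to 0.707 between groups. It is a description over the 14068 genes tested, which are not independent. SETD2 itself was at 17.99, 10.2 and 17.6 FPKM in control and 8.97, 8.09 and 12.2 FPKM in shSETD2, so the groups overlapped (log2 difference -0.58, SE 0.240, limma adjusted p = 0.0641). Without control library 2 the SETD2 difference was -0.83 (limma adjusted p = 0.0067), and without shSETD2 library 3 it was -0.73 (limma adjusted p = 0.0420). Leaving out any other library gave -0.53 to -0.45 (limma adjusted p between 0.149 and 0.181), and median ratio scaling gave -0.25 (limma adjusted p = 0.377). By qPCR and western blot, the study reported lower SETD2 in H1650 cells with SETD2 hairpins. Whether the RNA sequenced came from those same cells is not said. Of 9 lung epithelium markers only NKX2-1 was listed, at 1.44 to 1.80 FPKM in control and at 0 in every shSETD2 library. Of 10 epithelium markers 9 were listed, with a summed level of 14.8 to 17.0 FPKM in control and 408.3 to 461.7 FPKM in shSETD2. The keratin genes KRT7 (mean 0.0208 and 81.9 FPKM), KRT8 (2.86 and 93.9) and KRT18 (10.04 and 254.6) carried most of the sum in shSETD2. Of the markers that define epithelium, EPCAM was below 1 FPKM in all 6 libraries and CDH1 below 1 FPKM in all 3 shSETD2 libraries. Of 9 kidney lineage markers 8 were listed, with sums of 20.1 to 22.1 and 60.2 to 71.3 FPKM. EMX2 and SALL1 were listed at 0 in every shSETD2 library. Of 9 fibroblast and mesenchyme markers 5 were listed, with sums of 65.1 to 80.7 and 129.1 to 137.8 FPKM, mostly VIM (mean 66.5 and 132.4). The other listed ones had lower means in shSETD2. These were COL1A1 (2.78 and 0.269 FPKM), COL3A1 (0.739 and 0.00854), LUM (0.651 and 0.0258) and PDGFRB (0.0405 and 0.0108). These markers differ between the same groups as the genes described, and their part in the results was not tested. Whether both groups hold the same cell population was not tested, and a difference between populations cannot be told apart from one that goes with the shSETD2 label in any comparison given here. In bulk RNA, fewer cells of a type and less RNA per cell cannot be told apart.

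The ID genes moved apart from each other, and the sequences just upstream of ID1, ID3 and ID4 are shown for comparison of 1 gene that was higher and 2 that were lower in shSETD2. They come from the RefSeq promoter table (GRCh38.p14), matched base for base to GRCh37, and run 5′ to 3′ on the gene's strand up to the RefSeq start. ID1 lies at chr20:30192842-30193085 (plus strand, 244 bases, after 6 bases that an annotated exon covers were left out), ID3 at chr1:23885993-23886242 (minus strand) and ID4 at chr6:19837351-19837600 (plus strand). The ID2 window is not printed because 202 of its 250 bases lie in an annotated ID2 exon. The ID3 window lies inside the ID3 locus as the deposited table gives it. Capitals mark matches on either strand to CAGAC (a SMAD box), GGCGCC (a GC-rich element bound by BMP SMADs), CANNTG (the E-box bound by E proteins), TATAA and CCAAT.
ID1: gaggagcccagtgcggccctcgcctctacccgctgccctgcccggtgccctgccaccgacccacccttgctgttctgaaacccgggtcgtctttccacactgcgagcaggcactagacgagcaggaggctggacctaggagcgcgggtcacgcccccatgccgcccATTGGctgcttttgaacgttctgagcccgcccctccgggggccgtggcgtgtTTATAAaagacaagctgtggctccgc
ID3: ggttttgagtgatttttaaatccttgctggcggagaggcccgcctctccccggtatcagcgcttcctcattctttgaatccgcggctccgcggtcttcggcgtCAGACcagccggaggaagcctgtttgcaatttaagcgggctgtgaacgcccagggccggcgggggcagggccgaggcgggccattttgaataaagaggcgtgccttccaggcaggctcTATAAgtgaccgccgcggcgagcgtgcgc
ID4: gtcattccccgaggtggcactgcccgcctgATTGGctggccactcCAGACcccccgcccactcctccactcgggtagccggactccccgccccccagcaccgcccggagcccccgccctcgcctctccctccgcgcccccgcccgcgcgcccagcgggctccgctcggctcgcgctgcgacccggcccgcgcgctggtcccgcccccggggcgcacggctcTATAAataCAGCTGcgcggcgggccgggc
TATAA was matched in ID1 (31 bases before the start), ID3 (29) and ID4 (29). CAGAC was matched in ID3 (147 bases before the start) and ID4 (205), and an E-box in ID4 (21) and in the whole ID2 window (205). GGCGCC was in none of the 4 ID windows. Among 35093 RefSeq windows of 250 bases, 18.9% held TATAA, 38.0% CAGAC, 61.8% CANNTG, 32.0% CCAAT and 16.4% GGCGCC. A match is a description of these letters and no evidence of binding, and no data on binding were used here.

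ID2 and ID4 were the most abundant of the 10 genes in control cells and were near 0 in shSETD2. ID2 (ENSG00000115738.9_2, chromosome 2, 8818975 to 8824583, plus strand) was at 44.9, 46.2 and 43.6 FPKM in control and at 0.918, 0.951 and 0.612 FPKM in shSETD2. All 3 control libraries were far above all 3 shSETD2 libraries. Control averaged 44.9 ± 1.34 FPKM (SD, n = 3) and shSETD2 0.827 ± 0.187 FPKM (SD, n = 3), a ratio of 54.3, and the log2(FPKM + 1) difference was -4.66 (SE 0.0833). By level, ID2 ranked 501 among the 15897 genes in control and 11586 in shSETD2. ID4 (ENSG00000172201.11_3, chromosome 6, 19837617 to 19840915, plus strand) was at 42.7, 42.7 and 42.4 FPKM in control, and in shSETD2 it was at 0.0708 FPKM in library 1 and listed at 0 in the other two. The ID4 groups did not overlap, and its control mean was 42.6 ± 0.175 FPKM (SD, n = 3). Its difference on the log2(FPKM + 1) scale was -5.41 (SE 0.0503). An exact 0 can be a failed estimate here, since 10 genes were at 0 in 1 library and at 5 FPKM or more in another of the same group. ID2 and ID4 had larger absolute differences than 99.3% and 99.6% of the 14068 genes tested.

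ID1 and ID3 remained at several FPKM or more in every library, and they differed in opposite directions. ID1 (ENSG00000125968.8_2, chromosome 20, 30193086 to 30194318, plus strand) was at 12.6, 11.03 and 10.8 FPKM in control and at 27.0, 22.1 and 25.1 FPKM in shSETD2. Every shSETD2 library was above every control library. The ID1 mean was 11.5 ± 0.998 FPKM in control and 24.7 ± 2.48 FPKM in shSETD2 (SD, n = 3), a ratio of 2.15 and a log2 difference of 1.04 (SE 0.0906). ID3 (ENSG00000117318.8_2, chromosome 1, 23884409 to 23886285, minus strand) was at 14.9, 16.2 and 16.3 FPKM in control and at 7.20, 6.97 and 8.26 FPKM in shSETD2. All ID3 values of control lay above those of shSETD2. Its mean was 15.8 ± 0.806 FPKM in control and 7.48 ± 0.689 FPKM in shSETD2 (SD, n = 3), 2.11 times lower, with a log2 difference of -0.99 (SE 0.0729). The plot of the 10 genes by library shows these levels.

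**Figure D1:**
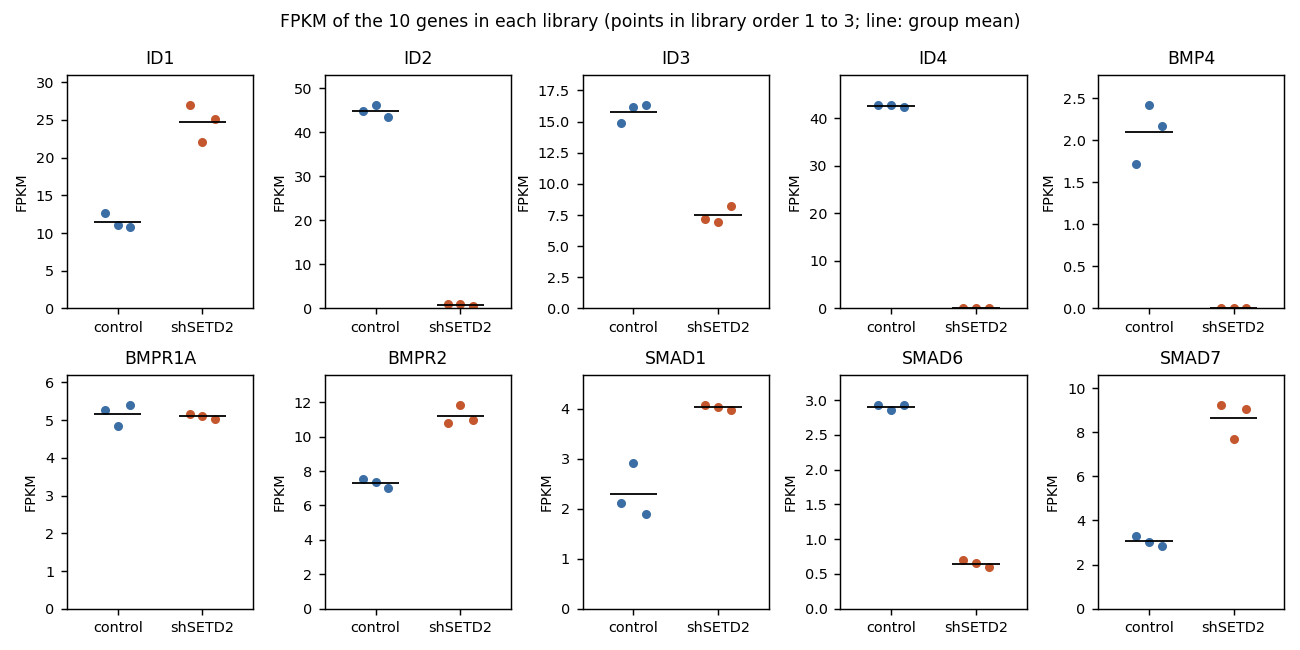
Each panel shows 1 gene, with FPKM on the vertical axis and the 3 control and 3 shSETD2 libraries as points and the group mean as a line. ID2 and ID4 lie above 42 FPKM in control and below 1 FPKM in shSETD2, and BMPR1A lies between 4.83 and 5.39 FPKM in all 6 libraries.

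The summed level of the ID genes was lower in shSETD2, and ID1 took most of what was left. The sum was 115.2, 116.1 and 113.1 FPKM in control and 35.2, 30.0 and 34.0 FPKM in shSETD2. ID1 made up 9.999% ± 0.832 of the sum in control and 74.7% ± 1.73 in shSETD2 (SD, n = 3). For ID2 the share was 39.1% ± 0.653 in control and 2.53% ± 0.688 in shSETD2, and for ID3 it was 13.8% ± 0.780 and 22.7% ± 1.99. ID4 held 37.1% ± 0.384 in control. In every control library the order was ID2, ID4, ID3, ID1, and in every shSETD2 library it was ID1, ID3, ID2, ID4. The ratio of ID1 to ID3 inside a library does not depend on scaling, and it was 0.849, 0.682 and 0.660 in control against 3.75, 3.17 and 3.04 in shSETD2. Each shSETD2 library thus held more ID1 than ID3, and each control library less.

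**Figure D2:**
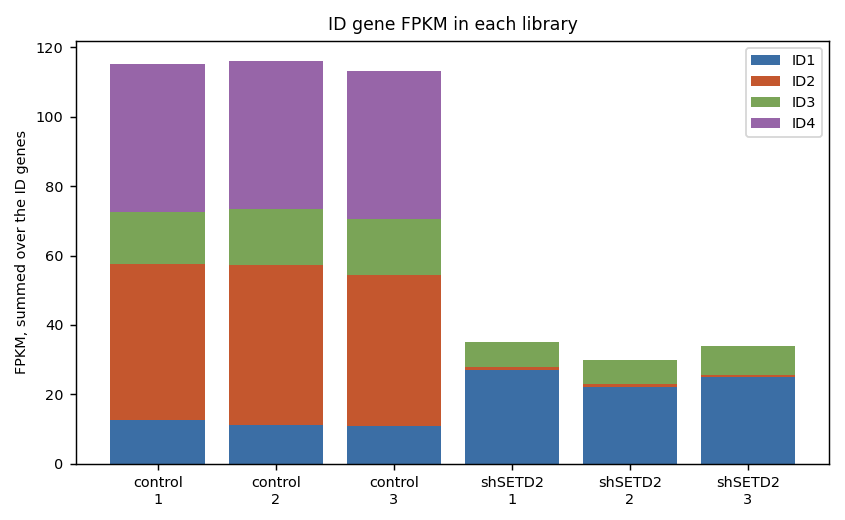
Stacked bars give the FPKM of ID1, ID2, ID3 and ID4 in each of the 6 libraries, with FPKM from 0 on the vertical axis. The bars reach 113.1 to 116.1 FPKM in control and 30.0 to 35.2 FPKM in shSETD2, where the ID2 and ID4 parts are nearly absent.

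BMP4, the ligand, was low in control and had no value above 0 in shSETD2. BMP4 (ENSG00000125378.15_3, chromosome 14, 54416454 to 54425479, minus strand) was at 1.72, 2.42 and 2.17 FPKM in control, with a mean of 2.10 ± 0.357 (SD, n = 3), and was listed at 0 in all 3 shSETD2 libraries. The groups did not overlap, and on the log2(FPKM + 1) scale the difference was -1.63 (SE 0.0926). ID4 and BMP4 had shSETD2 means under 0.5 FPKM, the filter on the mean of all 6 libraries, and so passed it through the control libraries alone.

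Of the receptor genes, BMPR2 was higher in shSETD2 and BMPR1A was level. BMPR2, a type II receptor (ENSG00000204217.13_3, chromosome 2, 203241659 to 203432474, plus strand), was at 7.52, 7.39 and 6.99 FPKM in control and 10.8, 11.8 and 10.98 FPKM in shSETD2. All shSETD2 libraries were above all control libraries, with means of 7.30 ± 0.275 and 11.2 ± 0.551 FPKM (SD, n = 3), a ratio of 1.53 and a log2 difference of 0.55 (SE 0.0541). BMPR1A, a type I receptor (ENSG00000107779.13_3, chromosome 10, 88516358 to 88692595, plus strand), was at 5.27, 4.83 and 5.39 FPKM in control and 5.18, 5.12 and 5.04 FPKM in shSETD2. The BMPR1A groups overlapped, and control libraries were both the lowest and the highest. Its log2 difference was -0.01 (SE 0.0547), and this became 0.16 with quantile normalization and 0.29 with median ratio scaling. Inside a library, BMPR2 was 1.43, 1.53 and 1.30 times BMPR1A in control and 2.08, 2.31 and 2.18 times in shSETD2, so that the groups did not overlap in this ratio.

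SMAD1, a receptor SMAD of the BMP arm, was higher in shSETD2. SMAD1 (ENSG00000170365.9_3, chromosome 4, 146402346 to 146479231, plus strand) was at 2.11, 2.91 and 1.90 FPKM in control and at 4.07, 4.04 and 3.99 FPKM in shSETD2. The control libraries spread more widely, but none reached the shSETD2 values. The means were 2.31 ± 0.532 and 4.03 ± 0.0437 FPKM (SD, n = 3), a ratio of 1.75 and a log2 difference of 0.62 (SE 0.114). Its sister genes, which were tested, went the other way. SMAD5 fell from 17.4 ± 0.475 to 8.57 ± 0.554 FPKM (log2 difference -0.94, limma adjusted p = 9.2e-06) and SMAD9 from 6.23 ± 0.396 to 0.195 ± 0.0334 FPKM (-2.60, limma adjusted p = 2.0e-07). SMAD9 passed the filter through the control libraries alone. The sum of the 3 receptor SMAD genes was 25.9 ± 0.661 FPKM in control and 12.8 ± 0.571 FPKM in shSETD2 (SD, n = 3). SMAD1 made up 8.89% ± 1.93 of it in control and 31.6% ± 1.38 in shSETD2, SMAD5 67.1% ± 0.264 and 66.9% ± 1.40, and SMAD9 24.1% ± 1.78 and 1.52% ± 0.238. SMAD5 remained the most abundant of the 3 in both groups. SMAD4, the shared partner, rose from 6.13 ± 0.284 to 7.28 ± 0.747 FPKM (log2 difference 0.21, limma adjusted p = 0.0410). That call was lost when any 1 library but shSETD2 library 3 was left out (limma adjusted p between 0.0621 and 0.118).

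The inhibitory SMAD genes differed in opposite directions. SMAD6, which acts mainly on the BMP arm (ENSG00000137834.14_3, chromosome 15, 66994566 to 67075186, plus strand), was at 2.92, 2.85 and 2.92 FPKM in control and at 0.699, 0.658 and 0.594 FPKM in shSETD2. Its groups did not overlap. The means were 2.90 ± 0.0403 and 0.650 ± 0.0529 FPKM (SD, n = 3), 4.46 times lower in shSETD2, with a log2 difference of -1.24 (SE 0.0539). SMAD7, which acts on both the BMP and the TGF-beta arm (ENSG00000101665.8_2, chromosome 18, 46446223 to 46477081, minus strand), was at 3.28, 3.02 and 2.86 FPKM in control and at 9.22, 7.68 and 9.04 FPKM in shSETD2. SMAD7 was higher in each shSETD2 library than in any control library. Its means were 3.05 ± 0.210 and 8.65 ± 0.837 FPKM (SD, n = 3), a ratio of 2.83 and a log2 difference of 1.25 (SE 0.0812). The ratio of SMAD7 to SMAD6 inside a library was 1.12, 1.06 and 0.978 in control and 13.2, 11.7 and 15.2 in shSETD2. Both genes stood at about the same level in control, and SMAD7 was the higher one in every shSETD2 library.

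Among the 10 genes, 4 (ID1, BMPR2, SMAD1 and SMAD7) had every shSETD2 library above every control library and 5 (ID2, ID3, ID4, BMP4 and SMAD6) every control library above. The groups did not overlap for 80.9% of all 14068 genes tested either, 27.9% with shSETD2 above and 53.0% with control above. Since the genes were chosen on this contrast, nothing is read from these counts. The median log2 difference was -0.50 over the 10 genes and -0.29 over all genes tested, and the median absolute difference was 1.14 against 0.63. The median of all genes became -0.11 with quantile normalization and -0.01 with median ratio scaling, and of all genes called the higher ones were 34.1% as deposited, 43.2% with quantile normalization and 49.6% with median ratio scaling. For 9 of the 10 genes the direction was the same under all alternatives that gave a value, and BMPR1A changed sign as given above.

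**Figure D3:**
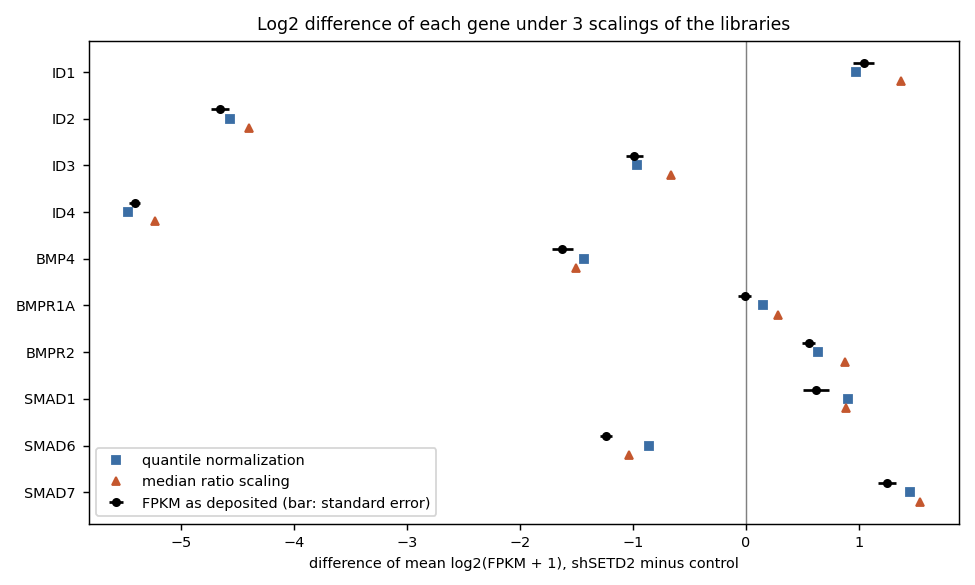
Points give the log2(FPKM + 1) difference, shSETD2 minus control, of each of the 10 genes, as black circles with the SE for FPKM as deposited, blue squares for quantile normalization and orange triangles for median ratio scaling. The markers of 9 genes stay on 1 side of 0, and those of BMPR1A lie at -0.01, 0.16 and 0.29.

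Levels per length placed the genes in a different order in each group. In control the order was ID2, ID4, ID3, ID1, BMPR2, BMPR1A, SMAD7, SMAD6, SMAD1 and BMP4, and the ranges of neighbours overlapped among the last 4. In shSETD2 it was ID1, BMPR2, SMAD7, ID3, BMPR1A, SMAD1, ID2, SMAD6, ID4 and BMP4, with overlapping ranges for SMAD7 and ID3, for ID2 and SMAD6, and for ID4 and BMP4. For 5 of the 10 genes the GENCODE annotation (v44, GRCh37) places another gene across an exon. These are antisense RNAs at ID2, ID4, BMP4 and SMAD1, and a gene on the same strand at BMPR2, and none of them is listed. The library kit keeps the strand, but whether the quantification used it is not given in the sources used here, so reads of these overlapping genes cannot be told apart.

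The wider pathway was described with a list of 86 other genes, of which 20 were not listed, 5 were under the filter and 61 were tested. Of the 61, 27 rose and 29 fell at a limma adjusted p under 0.05, with a median log2 difference of 0.02. Over all 14068 genes tested, limma called 78.6%, with 26.8% higher and 51.8% lower in shSETD2, and the counts by role that follow are descriptions to be read beside these shares. With median ratio scaling, 29 rose and 24 fell, beside 5305 higher and 5394 lower among all 14068 genes under that scaling. Among the 40 tested genes of the BMP arm 14 rose (35.0%) and 23 fell (57.5%), with a median log2 difference of -0.81. With the filter at a mean FPKM of 5 the split turned to 14 higher and 9 lower. Over all 7078 genes tested at that filter, 2401 were higher and 3246 lower. Among the 18 tested genes of the TGF-beta and activin arm 11 rose and 5 fell (median 0.73), and with the filter at 5 it was 7 and 0. Of the 61 genes, 18 had an shSETD2 mean and 4 a control mean under the filter, and passed it through the other group alone.

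Of 13 BMP ligand genes other than BMP4, 5 were tested and all 5 fell (median -1.87), 4 of them with an shSETD2 mean under the filter. BMP7 averaged 7.19 ± 0.467 FPKM (SD, n = 3) in control libraries and was listed at 0 in each shSETD2 library (log2 difference -3.03, limma adjusted p = 9.6e-08). GDF7 was at 3.19 FPKM in control and at 0.007, 0 and 0.007 FPKM in shSETD2 (-2.06, limma adjusted p = 2.3e-07). BMP8B fell from 3.33 to 0.182 FPKM (-1.87, limma adjusted p = 4.8e-06). With the filter at a mean FPKM of 5, no ligand gene was tested.

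Beside BMPR1A and BMPR2, 7 receptor and co-receptor genes were tested, of which 3 rose and 3 fell. ENG, a co-receptor known from endothelium, was at 0.101, 0.222 and 0 FPKM in control and 23.7, 16.3 and 19.2 FPKM in shSETD2 (log2 difference 4.22, limma adjusted p = 8.0e-07). ACVR2B, a type II receptor for activins and BMPs, fell from 17.5 to 1.68 FPKM (-2.79, limma adjusted p = 1.2e-07). RGMA, a BMP co-receptor, was at 2.08 FPKM in control and listed at 0 in each shSETD2 library (-1.62, limma adjusted p = 1.6e-06). These 3 were named for the largest differences in their list. ENG passed the filter through the shSETD2 libraries alone and RGMA through control alone.

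Of 16 antagonist genes 6 were tested, and 3 rose and 2 fell. NOG, whose product noggin binds BMP ligands outside the cell, rose from 1.67 ± 0.398 to 20.8 ± 1.01 FPKM (log2 difference 3.04, limma adjusted p = 9.9e-07). NBL1 rose from 4.04 ± 0.326 to 17.8 ± 1.73 FPKM (1.90, limma adjusted p = 2.6e-06). FSTL1 fell from 11.9 ± 0.671 to 0.315 ± 0.0177 FPKM (-3.30, limma adjusted p = 6.1e-08), and it passed the filter through control alone. The antagonists that passed the test thus moved both ways.

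All 12 genes of intracellular modulators were tested, and 6 rose and 5 fell. SMURF2, a ubiquitin ligase that SMAD7 brings to receptors, rose from 8.96 ± 0.379 to 70.1 ± 2.79 FPKM (log2 difference 2.83, limma adjusted p = 5.5e-08). NEDD4L, another ubiquitin ligase of SMAD proteins, rose from 2.53 ± 0.164 to 22.4 ± 0.808 FPKM (2.73, limma adjusted p = 9.5e-08). CTDSP1, a phosphatase, rose from 6.96 ± 2.61 to 18.8 ± 0.217 FPKM (1.37, limma adjusted p = 0.00228), with a wide spread among control libraries.

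Of 11 other BMP targets 7 were tested, of which 6 fell and 1 rose (median -1.47), beside 51.8% and 26.8% of all genes. HEY1, MSX2, DLX5 and GATA3 had shSETD2 means under 0.5 FPKM and passed the filter through control alone. At a filter of 5 the split was 2 lower and 1 higher, beside 3246 lower and 2401 higher among all 7078 genes tested there. HEY1, a Notch and BMP target that encodes a transcriptional repressor, fell from 47.9 ± 0.902 to 0.217 ± 0.0559 FPKM (log2 difference -5.33, limma adjusted p = 9.0e-09). MSX2, a homeobox gene, was at 6.35 ± 0.477 FPKM in control and listed at 0 in each shSETD2 library (-2.88, limma adjusted p = 1.5e-07). HES1, better known as a Notch target, rose from 18.2 ± 0.620 to 78.1 ± 1.86 FPKM (2.05, limma adjusted p = 8.8e-08).

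ID proteins act through E proteins, and the 3 E protein genes had smaller differences than ID2 and ID4. TCF3 rose from 8.56 ± 0.0941 to 15.96 ± 1.20 FPKM (log2 difference 0.83, limma adjusted p = 2.4e-05), and TCF4 fell from 0.984 ± 0.0606 to 0.0618 ± 0.00620 FPKM (-0.90, limma adjusted p = 9.2e-06). TCF4 had an shSETD2 mean under 0.5 FPKM and passed the filter through control alone. With a pseudocount of 0.01 its difference was -3.79, against -5.77 for ID2 and -11.05 for ID4. TCF12 rose from 5.26 ± 0.323 to 6.81 ± 1.12 FPKM (0.31, limma adjusted p = 0.0358), a call that was lost when any 1 library but shSETD2 library 3 was left out (limma adjusted p between 0.0510 and 0.106). The summed ID level was 7.75, 7.73 and 7.80 times the summed E protein level in control and 1.62, 1.18 and 1.59 times in shSETD2. The ID genes exceeded the E protein genes in every library, by less in each shSETD2 library than in any control library.

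The TGF-beta arm, which SMAD7 also inhibits, had a target and a ligand gene among those that rose. CCN2, a connective tissue growth factor gene, rose from 3.32 ± 0.724 to 136.1 ± 2.40 FPKM (log2 difference 4.9996, limma adjusted p = 1.5e-07). INHBA, which encodes an activin subunit, rose from 0.735 ± 0.154 to 13.8 ± 2.08 FPKM (3.09, limma adjusted p = 1.5e-06). Among the 5 that fell, LTBP1, which encodes a protein that binds latent TGF-beta, went from 6.72 to 0.362 FPKM (-2.50, limma adjusted p = 2.7e-07). LTBP1 passed the filter through control alone.

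**Figure D4:**
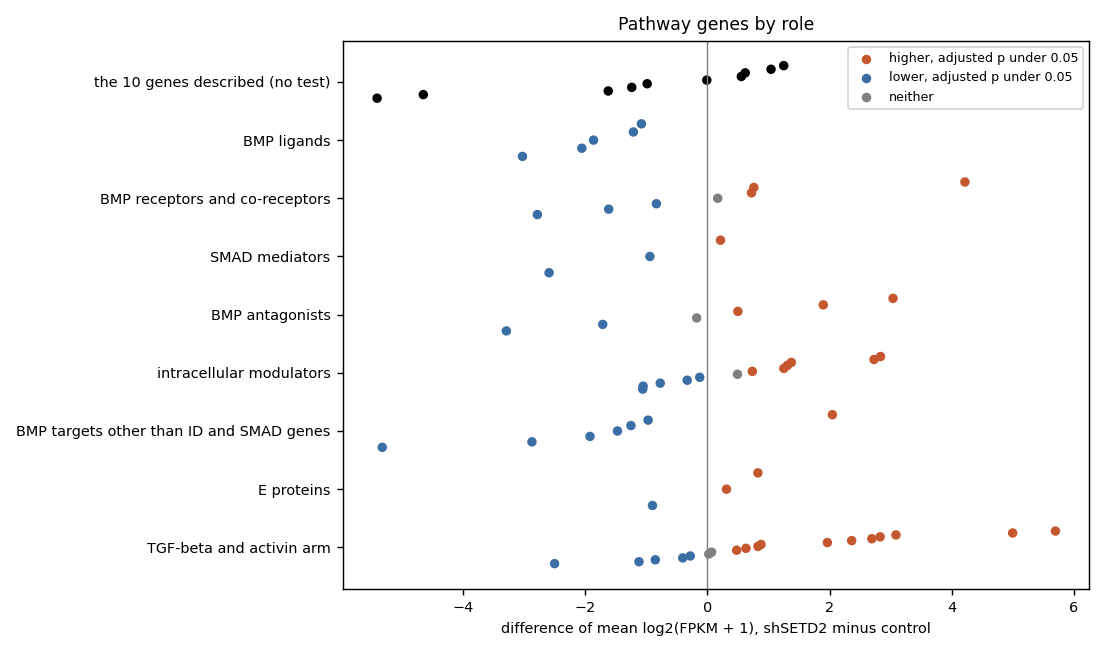
Each point is the log2(FPKM + 1) difference, shSETD2 minus control, of 1 gene, in rows by role, with orange for an adjusted p under 0.05 and higher, blue for lower and grey for neither. The 5 tested BMP ligands are all blue, and 11 of 18 genes of the TGF-beta and activin arm are orange.

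The genes nearest the 10 loci moved in both directions. Within 500 kb, measured between the lower coordinates of the loci, 59 tested neighbours were found, of which 20 rose and 31 fell (median -0.17), near the shares of all genes tested (26.8% and 51.8%). The counts by locus that follow are descriptions. Beside ID2 both neighbours fell, by at most 0.91 on the log2 scale against -4.66 for ID2. Beside ID4 the single neighbour rose by 1.28, against -5.41 for ID4. Of 7 neighbours of ID1, 4 rose and 1 fell, and of 15 neighbours of ID3, 4 rose and 9 fell. Of 8 neighbours of SMAD6 7 fell, and the 1 that rose was SMAD3, a receptor SMAD of the TGF-beta arm, from 5.16 to 42.8 FPKM. SMAD7 had 4 neighbours, of which 3 rose. BMPR2 was higher in shSETD2 while 5 of its 7 neighbours fell, and 5 of the 8 neighbours of BMPR1A fell. SMAD1 had 5 neighbours (2 rose and 1 fell) and BMP4 had 2 (1 each way).

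**Figure D5:**
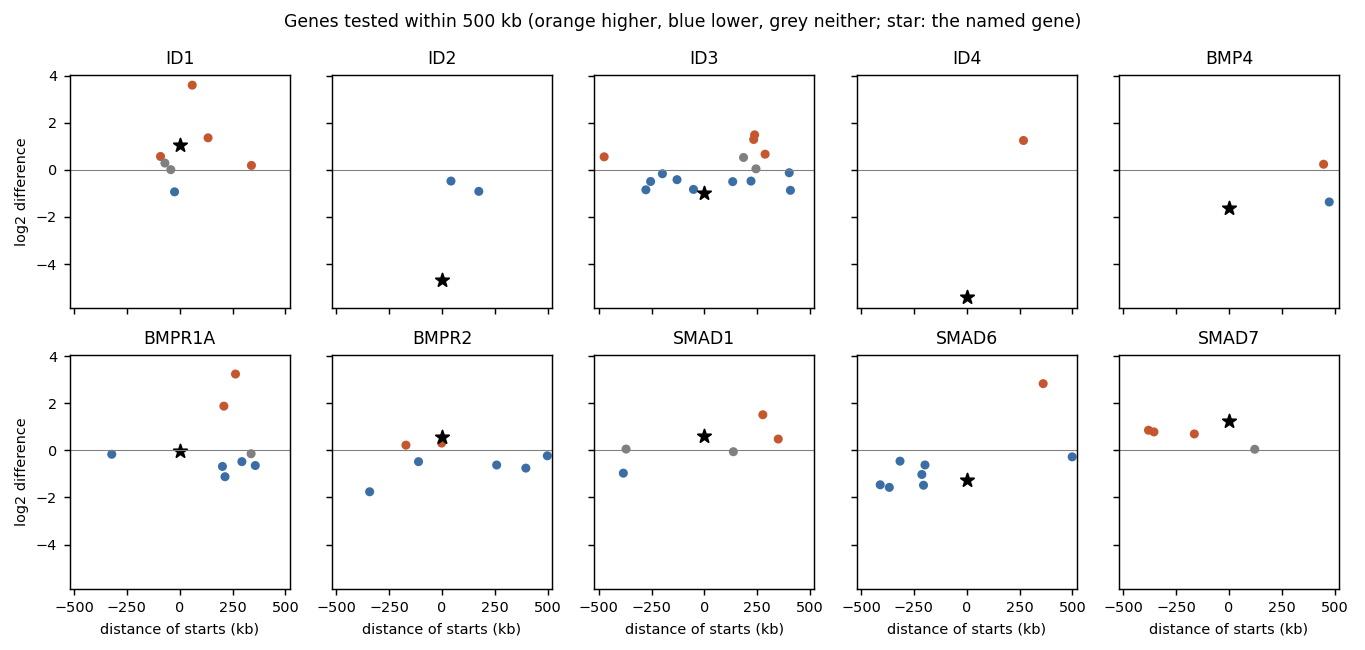
Points give the log2(FPKM + 1) difference, shSETD2 minus control, of tested genes against their distance in kb between lower coordinates, in 1 panel for each of the 10 genes, with the gene itself as a star at 0 kb (orange higher, blue lower, grey neither). ID2 at -4.66 and ID4 at -5.41 lie far below all of their neighbours.

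Likeness over the 6 libraries was measured as the Euclidean distance of log2(FPKM + 1), which reads level and difference together. Nearest to ID1 were BAIAP2L1 (distance 0.196) and ZDHHC7 (0.228), and nearest to ID3 were AARS2 (0.188) and UBQLN2 (0.189). For ID4 they were BEX4 (0.170) and NEFM (0.316), both listed at 0 in all shSETD2 libraries. ID2 had its nearest genes farther away, TSC22D3 at 0.516 and HOXB9 at 0.703. The ID genes and the other genes described were left out of the candidates before ranking. Whether an ID gene lies nearest to another was therefore not tested.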

How the data were processed

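Total RNA of 6 libraries was prepared with a stranded kit. According to the study's methods and processing notes, the authors aligned with HISAT2 against hg19 (GRCh37) and took gene levels from Ballgown; versions are not given in the sources used here. The deposited values are FPKM per gene and library, normalized by the authors for length and mapped fragments. Low values were not whole multiples of 1 step (1.70% of 294 low genes shared a ratio within 0.2%), so depth is unknown and precision rests on 3 libraries a group. A second deposited file holds the authors' own comparison and was not used. All value columns matched a library by name.

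A linear model with group as its only term was fitted in limma 3.58.1 (R 4.3.3; lmFit, then eBayes with trend) to log2(FPKM + 1) of the 14068 of 15897 genes whose mean FPKM reached 0.5. P-values were adjusted by Benjamini and Hochberg's method across these genes, with a threshold of 0.05. The pseudocount of 1 understates differences of low genes. An exact permutation test of 3 against 3 cannot go below p = 0.1 and was not used. Levels are FPKM and differences are shSETD2 minus control. On simulated data for 14068 genes, the fit called 89 of 100 genes changed by a fold of 2, 99 of 100 changed by a fold of 4, and 8 of 13868 unchanged genes. The folds were of FPKM + 1, with independent normal noise at each gene's fitted spread. In the real data 78.6% of genes were called, far more than were changed there, so these rates do not carry over.

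The 10 genes, the pathway lists and the tests were chosen with earlier results of these data known, and the TATAA and CCAAT motifs after the sequences were seen. Named are the 10 genes, SETD2, the 3 SMAD mediators, the 3 E proteins, up to 3 genes per other pathway list with the largest absolute difference among those past the threshold without overlap, and the 2 nearest genes of each ID gene; not every gene under this rule is reported. SMAD3, LTBP1, DLX5, GATA3 and the cell type markers named were picked after their values were seen. Alternatives were pseudocounts of 0.1 and 0.01, no filter, a mean FPKM of at least 5, quantile normalization, median ratio scaling, no trend, a replicate block and each library left out. Other steps used Python 3.11.15, pandas 2.3.3 and matplotlib 3.10.9.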

Additional observations from a re-analysis of the deposited data

How the results depend on the processing

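With a filter at a mean FPKM of 5, 2401 genes were higher and 3246 lower in shSETD2 (3774 and 7283 at 0.5), and of 34 tested pathway genes 23 were higher and 9 lower; fewer genes were tested there, and BMP4, SMAD1 and SMAD6 had no value. BMPR1A changed sign, to 0.16 with quantile normalization, 0.29 with median ratio scaling, 0.0013 without control replicate 1 and 0.015 without control replicate 3; leaving out 1 library gave -0.051 to 0.015. Without filter 4012 genes were higher and 8118 lower. Leaving out 1 library at a time gave 3587 to 3704 genes higher and 6925 to 7097 lower, and 25 to 27 pathway genes higher and 28 lower. Same-numbered libraries did not deviate together (correlations -0.024, 0.018 and -0.0077), so the numbers were not taken to pair them. With a replicate block, 3733 genes were higher and 7243 lower, with 27 and 28 pathway genes, and SETD2 had a limma adjusted p of 0.0156. Pseudocounts of 0.1 and 0.01 moved ID4 to -8.48 and -11.05, BMP4 to -4.45 and -7.71 and ID2 to -5.62 and -5.77. Median ratio scaling moved ID1 to 1.37 and ID3 to -0.66. Depth is unknown, so no counting error could be given.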
